A study of Mus musculus with 8 samples.

Results

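Summits of ATAC-seq peaks, an assay of open chromatin, at bidirectional promoters were described in brown adipose tissue (BAT) of mice. A bidirectional, or divergent, promoter was taken as a minus-strand transcription start site (TSS) with the plus-strand TSS of another gene to its right, at most 1000 bp away, so that the genes are transcribed away from each other. A summit, the base of highest read pile-up in a peak, was a member when it lay between both TSSs or at most 100 bp outside them. Of 31729 summits on chromosomes 1 to 19, 623 (1.96%) were members, and the whole deposited list held 32173 summits. RefSeq NM transcripts gave 24860 TSSs of 20021 genes, and among them 1156 divergent TSS pairs that joined 1801 genes into 907 gene pairs. Thus 9% of the genes (95% Wilson interval 8.61 to 9.4%) had a divergent neighbour, and 13 of them had 2.

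The series holds ATAC-seq and RNA-seq libraries of WT and Dot1L-BKO mice, with 2 libraries of each kind per genotype. Only the ATAC-seq summit list was analysed here. All animals were kept on chow to 12 weeks of age and were in the cold, at 4°C, for 4 h before BAT was frozen and its nuclei were taken, so no room-temperature group is in the list. Dot1L-BKO mice lack the H3K79 methyltransferase Dot1l where Ucp1-Cre is active, which is in brown and beige adipocytes, and the other cells of the tissue keep the gene. WT mice carried the same floxed Dot1l alleles without Cre. Each ATAC-seq library came from the BAT nuclei of 1 mouse.

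The list is a single set of peaks made from both WT and both Dot1L-BKO libraries, with 1 score per summit, the −log10 of the peak caller's q-value. The peak names join the WT to the Dot1L-BKO libraries by "vs", and which of them served as treatment or control was not given. If the Dot1L-BKO libraries were the control, a summit would mark WT signal above that of Dot1L-BKO rather than open chromatin in both, and a missing summit would not mark closed chromatin. It holds no values per library, so neither genotype nor replicates could be compared and no test was made. Intervals below cover counting error over summits, pairs or TSSs, which are not replicates of a condition, and the depth of the libraries is unknown from this file. The lowest score was 1.31, just above the 1.3 that a q-value of 0.05 gives. As a check of the tissue, a summit lay within 1 kb of a TSS of 8 of 8 brown or general adipocyte genes (Ucp1, Cidea, Ppargc1a, Dio2, Prdm16, Ebf2, Adipoq and Pparg) against 46.8% of all 20021 genes, and of 1 of 7 genes of other cell types (Cdh5 of endothelium, but not Pecam1, Ptprc, Adgre1, Acta1, Myod1 or Alb).

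As background, divergent gene pairs are common in mammals and many are shared by most cell types. Their promoters usually lie in CpG islands, seldom have a TATA box, and form a single nucleosome-poor region from which RNA polymerase starts in both directions. Genes of DNA repair, of the mitochondrion and of basic RNA and protein metabolism are known to be frequent among them, and the ETS factor GABP and the CCAAT-binding factor NF-Y are known for acting at such promoters.

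The stretch between the TSSs is shown for 7 member pairs, to show what such promoters hold between their TSSs. The motif counts given later use only the 100 bp on each side of a summit, so some of the matches shown here are not counted there, namely those of Hadha-Hadhb and Cdca2-Kctd9 and the SP/KLF matches of Styxl1-Mdh2. They come from the first 12 stretches of at most 300 bases, outside NM exons and with a summit inside, in the order of the rule (textbook pairs, then the 10 highest pairs, then the leading pairs of the gene lists, each by score), and the 7 were picked after reading them to show different combinations of matches. The sequences are from the RefSeq GRCm38 genome, plus strand, 5′ to 3′, and start 1 base right of the minus-strand TSS and end 1 base left of the plus-strand TSS. Capitals mark exact matches, on either strand, to ETS (CCGGAAG), NFY (CCAATNA), SP/KLF (GGGCGGG), ZNF143 (ACTACAA), CRE (TGACGTCA) or the letters CTCGCGAG, listed as CGCG.
Hadha-Hadhb: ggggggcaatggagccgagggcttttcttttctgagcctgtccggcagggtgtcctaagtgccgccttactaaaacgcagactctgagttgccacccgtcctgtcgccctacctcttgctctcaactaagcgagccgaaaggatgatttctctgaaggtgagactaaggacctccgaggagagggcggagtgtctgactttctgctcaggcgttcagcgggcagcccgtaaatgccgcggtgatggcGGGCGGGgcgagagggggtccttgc
Cdca2-Kctd9: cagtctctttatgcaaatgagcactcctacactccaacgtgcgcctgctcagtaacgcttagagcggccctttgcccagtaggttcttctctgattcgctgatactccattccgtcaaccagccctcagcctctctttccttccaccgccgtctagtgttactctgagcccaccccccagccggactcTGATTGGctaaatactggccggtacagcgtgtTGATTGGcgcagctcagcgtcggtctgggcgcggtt
Nop14-Grk4: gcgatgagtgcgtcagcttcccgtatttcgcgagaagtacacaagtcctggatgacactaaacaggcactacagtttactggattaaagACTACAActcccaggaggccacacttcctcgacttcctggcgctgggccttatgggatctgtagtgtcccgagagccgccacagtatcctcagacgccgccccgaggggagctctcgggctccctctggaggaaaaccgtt
Zfp654-Cggbp1: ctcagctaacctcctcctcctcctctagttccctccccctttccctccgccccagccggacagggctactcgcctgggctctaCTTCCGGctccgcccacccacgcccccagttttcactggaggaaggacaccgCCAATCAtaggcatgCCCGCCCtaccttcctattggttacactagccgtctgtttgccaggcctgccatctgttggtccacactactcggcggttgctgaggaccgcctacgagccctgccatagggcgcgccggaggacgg
Mrpl18-Tcp1: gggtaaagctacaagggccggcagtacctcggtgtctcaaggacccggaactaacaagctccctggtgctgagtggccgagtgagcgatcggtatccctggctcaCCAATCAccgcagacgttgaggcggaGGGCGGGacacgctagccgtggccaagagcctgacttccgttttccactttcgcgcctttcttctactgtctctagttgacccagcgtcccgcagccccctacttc
Tepsin-Ndufaf8: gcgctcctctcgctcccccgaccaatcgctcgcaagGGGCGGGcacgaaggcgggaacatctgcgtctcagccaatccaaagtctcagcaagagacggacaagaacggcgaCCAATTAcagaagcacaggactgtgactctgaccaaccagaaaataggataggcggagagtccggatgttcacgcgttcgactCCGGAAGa
Styxl1-Mdh2: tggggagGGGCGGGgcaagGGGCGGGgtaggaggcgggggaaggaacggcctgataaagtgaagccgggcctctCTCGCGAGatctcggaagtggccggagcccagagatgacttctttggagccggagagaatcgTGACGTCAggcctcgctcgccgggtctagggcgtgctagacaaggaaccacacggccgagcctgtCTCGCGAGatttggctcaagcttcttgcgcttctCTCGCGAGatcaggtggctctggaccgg

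Between Hadha and Hadhb, which encode the α and β subunits of the mitochondrial trifunctional protein of fatty acid oxidation, the stretch was chr5:30154981-30155252, its summit was at base 113 of 272, and its match was to SP/KLF near the Hadhb end. The Cdca2-Kctd9 stretch (chr14:67715842-67716097) had its summit at base 75 of 256, far from its 2 NFY matches at bases 189 and 221. In both the summit did not sit on a match.

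The Nop14-Grk4 stretch (chr5:34660149-34660378) held a ZNF143 match at base 90 and its summit at base 153 of 230. The Zfp654-Cggbp1 stretch (chr16:64851724-64852000) held ETS, NFY and SP/KLF matches at bases 84, 136 and 151, and its summit, at base 146 of 277, fell between the last 2. In the Mrpl18-Tcp1 stretch (chr17:12916092-12916328) NFY and SP/KLF matches began at bases 106 and 132 and the summit was at base 142 of 237. The summits of Zfp654-Cggbp1 and Mrpl18-Tcp1 lay 4 bases from a match.

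The Tepsin-Ndufaf8 stretch (chr11:120098732-120098933) held SP/KLF, NFY and ETS matches at bases 37, 112 and 195, with the summit at base 132 of 202. The Styxl1-Mdh2 stretch (chr5:135778386-135778648) was the densest of the 7, with 2 SP/KLF matches, a CRE match at base 137 and the letters CTCGCGAG at bases 75, 202 and 236, and its summit at base 166 of 263. Mdh2 encodes the mitochondrial malate dehydrogenase of the citrate cycle. The letters CTCGCGAG were added to the search after this sequence had been read.

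Most divergent promoters had a summit in this list or near by. A member summit was found at 625 of 907 gene pairs (68.9%, 95% interval 65.8 to 71.8%), since 6 members each served 2 or more gene pairs. A single member stood at 621 of these pairs and 2 members at 4. Of the 282 pairs without a member, 197 had a summit elsewhere from 1 kb left of the pair to 1 kb right of it, which brought the pairs with any summit to 822 (90.6%, 88.6 to 92.4%). The remaining 85 pairs (9.37%, 7.64 to 11.4%) had none in that range.

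Counted by TSS, 661 of 2034 distinct TSSs in a divergent pair (32.5%, 30.5 to 34.6%) had a summit within 100 bp, against 3210 of 22797 other TSSs (14.1%, 13.6 to 14.5%). Within 1 kb the shares were 90.1% (88.7 to 91.3%) and 40.9% (40.2 to 41.5%). For a paired TSS this range also holds the neighbour's TSS, so a summit at either one counts, and no allowance was made for that. The other TSSs include gene families with few or no summits here, such as olfactory receptors, with one within 1 kb at 0 of 1097 genes. Paired TSSs were richer in GC, with a median of 63.1% in the surrounding 301 bp against 59.5%, and 88% of them had a CpG ratio (observed over expected CpG) of at least 0.6 against 50.1% of the others. The part of this composition in the gap was not tested, and the gap was also present within each class of CpG ratio. Among TSSs with a CpG ratio of at least 0.6, 93.6% of paired and 66.9% of other TSSs had a summit within 1 kb, and among those below 0.6 the shares were 63.9% (57.7 to 69.7%) and 14.8% (14.1 to 15.4%). In the GC range from 60 to under 70%, they were 92% and 64.3%.

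Counted by gene, 1637 of 1801 genes in a divergent pair (90.9%) and 7734 of 18220 other genes (42.4%) had a summit within 1 kb. Here too a summit near the neighbour's TSS could count for a paired gene. Of all 9371 genes with such a summit, 1243 (13.3%, 12.6 to 14%) shared a member summit with their neighbour. At these promoters a summit stands for both genes, and the list cannot divide it between them.

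The score of a member was usually above that of other promoter summits. The 623 members ranged from 1.83 to 116, with a median of 18.8 (95% interval of the median 17.4 to 20.2) and quartiles of 10.4 and 30.1. The 3071 other summits within 100 bp of a TSS had a median of 10.9 (10.4 to 10.9), the 6577 at 101 to 1000 bp had 6.53, and the 21458 farther away had 4.16. A score of at least 10 was reached by 471 members (75.6%) and by 1659 of the other summits within 100 bp of a TSS (54%). The order held when members were limited in the same way, to the 488 within 100 bp of a TSS, whose median was 17.4 (15.4 to 19.4).

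**Figure D1:**
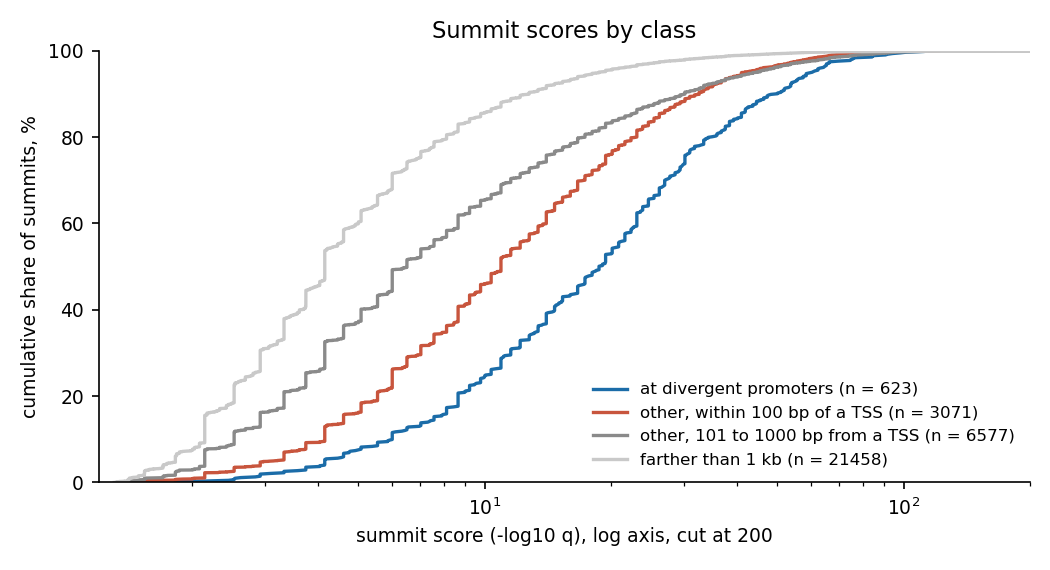
Cumulative share of summits (vertical axis, %) against score (−log10 q, log axis) for summits at divergent promoters and 3 other classes by distance to the nearest TSS. The curve of the 623 members lies to the right of the others over most of the range, with medians of 18.8, 10.9, 6.53 and 4.16 from right to left.

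The members were not the highest peaks of the list. The highest scores were elsewhere, with a maximum of 13426 farther than 1 kb from a TSS, and the highest member ranked 33. Members made up 109 of the 1000 highest scores (10.9%, 9.12 to 13%). At the low end they were few, since 12 members (1.93%) and 4917 of all summits (15.5%) had one of the 3 most frequent score values.

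The order of the scores was the same within ranges of base composition. Members had a median GC content of 61.7% in the 201 bp around the summit and a median CpG ratio of 0.862, and the other summits within 100 bp of a TSS had 64.2% and 0.846. Between 50 and under 60% GC the median score was 20.2 (16.7 to 23.1) in 218 members against 10.4 (9.5 to 10.9) in 724 others. From 60 to under 70% it was 18.5 (16.7 to 20.2) against 11.5 (10.9 to 12.7), and from 70% up 15 (12.8 to 21.6) against 9.78 (8.65 to 10.9). Repeat-masked sequence held 6 member summits (0.963%) and 3545 of the summits farther than 1 kb (16.5%).

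Where members sat within the pair depended on the margin and the TSSs used. Of the 623, 385 (61.8%, 57.9 to 65.5%) lay between both TSSs, 129 up to 100 bp inside the minus-strand gene and 109 up to 100 bp inside the plus-strand gene, and 254 (40.8%) fell in an NM exon of some transcript. The window itself sets part of this, since it ends 100 bp inside each gene. The share between the TSSs was 50.7% (47.1 to 54.3%) with a margin of 200 bp and 49.1% (45.6 to 52.5%) with XM transcripts added. The share that summits spread evenly over the window would give was not worked out. The side was balanced, as 319 members (51.2%, 47.3 to 55.1%) were nearer to the minus-strand TSS. The median distance was 55 bp to the nearer TSS and 68 bp to the midpoint of the pair, and 415 members (66.6%) were within 100 bp of that midpoint. Of the 385 between the TSSs, 241 (62.6%) fell in the central 50% of the gap.

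Scores differed with placement. Members between the TSSs had a median of 23.1 (20.2 to 24.6), those on the minus side 14.7 (12.8 to 17.4) and those on the plus side 12.2 (9.78 to 16.7). The 135 members in the gap but over 100 bp from both TSSs had 26.9 (21.6 to 30.1), and can occur only in wider pairs. Placement went with the distance between the TSSs, and their parts in the score were not separated. In pairs spaced 1 to 50 bp, 12.3% of members lay between the TSSs and the median score of all members was 10.9. In pairs spaced 201 to 300 bp these were 80.2% and 24.6. Just inside the margin, the 89 members 51 to 100 bp outside a pair had a median of 13.8, and just beyond it the 56 summits 101 to 150 bp outside had 11.7. The values changed little across the margin, which is a choice of the rule.

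**Figure D2:**
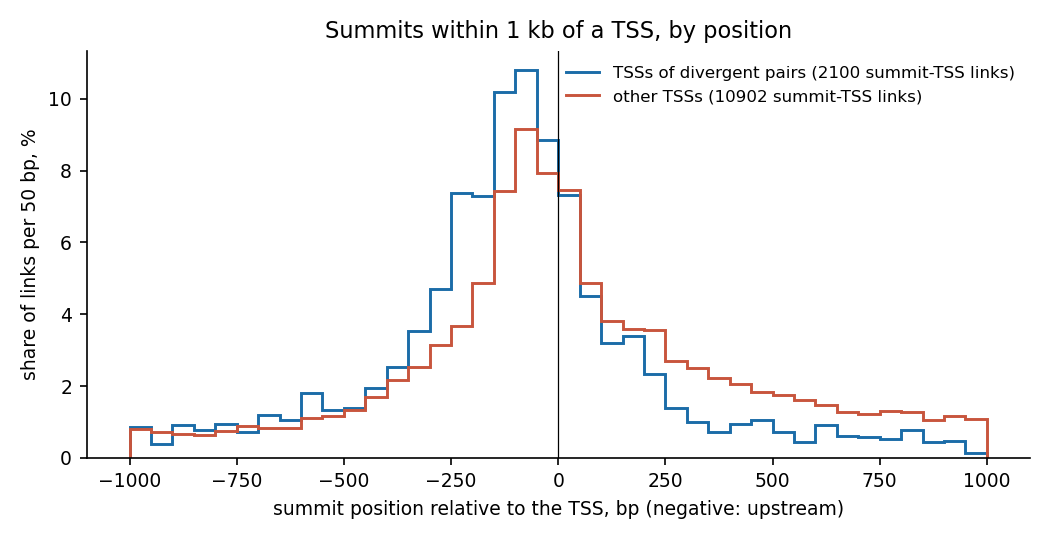
Position of summits relative to TSSs of divergent pairs and to other TSSs (horizontal axis, bp, negative upstream of the gene), as the share of all summit-TSS links within 1 kb per 50 bp. For paired TSSs 68.6% of the 2100 links were upstream, against 52.2% of 10902 links for other TSSs, and the downstream side of the paired curve is lower from 50 bp on.

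The position around single TSSs differed in the same direction. Upstream of the TSS lay 68.6% of summit links of paired TSSs (66.6 to 70.5%) and 52.2% of those of other TSSs (51.3 to 53.2%), with median offsets of −95.5 and −18 bp. At 101 to 300 bp upstream the shares were 29.6 and 19.1%, and more than 300 bp downstream they were 9.29 and 21.7%. For a paired TSS the upstream side holds the neighbour's TSS, so a summit near the neighbour is counted there.

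The distance between the TSSs, whose median was 149 bp (quartiles 74 and 296), went with both the presence and the score of a member. A member was found at 65 of 122 pairs spaced 1 to 50 bp (53.3%, 44.5 to 61.9%), at 102 of 190 spaced 51 to 100 bp (53.7%) and at 102 of 144 spaced 101 to 150 bp (70.8%). The share was 82.4% (75.1 to 87.8%) at 201 to 300 bp and 88.7% (81.2 to 93.4%) at 301 to 500 bp, and 69.9% (60.9 to 77.6%) at 501 to 1000 bp. The window of the rule widens with the spacing, so these shares do not compare equal lengths of DNA. In a fixed window of 150 bp around the midpoint, 58.2% of the closest pairs (49.3 to 66.6%), 75% of those at 201 to 300 bp (67.1 to 81.5%) and 27.4% of the widest (20.1 to 36.3%) had a summit. Over 1 kb around the pair, 86.7 to 95.3% of pairs had a summit in every spacing class.

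Members of closely spaced pairs had lower scores. The median was 10.9 (8.65 to 13.4) at 1 to 50 bp, 14 (12.2 to 15.4) at 51 to 100 bp and 18.1 (15 to 20.2) at 101 to 150 bp. From 151 bp up it was between 21.6 and 24.6 in all 4 classes. The same was seen without the member window, in the highest summit within 1 kb of each pair, with medians of 9.78 (8.65 to 11.2), 12.2 (10.9 to 14), 17.4 (14.7 to 19.4) and then 20.2 to 23.1. Median GC around the members was 63.2% in the closest pairs and 60.9% in the widest.

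**Figure D3:**
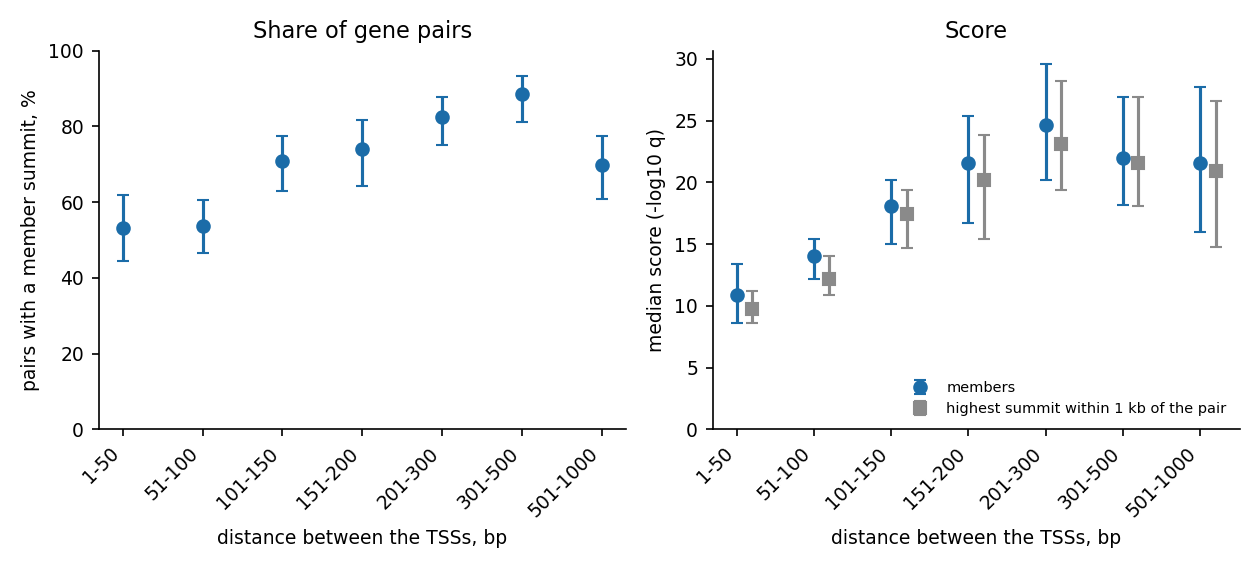
Left, share of gene pairs with a member summit (%), and right, median score (−log10 q) of members and of the highest summit within 1 kb of each pair, by the distance between the TSSs (bp). Bars are 95% intervals (Wilson for shares, order statistics for medians). The scores of both kinds are lowest in pairs under 100 bp and level off above 150 bp.

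At the outer limit of the rule, the 7 members of pairs spaced 900 to 1000 bp had a median score of 9.21, and 11 summits in pairs spaced 1001 to 1100 bp, which were not members, had 8.94. In the closest pairs the summit was often beside the pair rather than in it. Only 7 of 57 members (12.3%) lay between TSSs 1 to 50 bp apart, where there is little room, against 89 of 111 (80.2%) at 201 to 300 bp.

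The pairs with no member were of several kinds. The 197 with a summit only outside the window were closer, with a median spacing of 80 bp against 177 bp in the 625 pairs with a member, and were rich in CpG at the midpoint (median ratio 0.916, 0.888 to 0.948, against 0.853, 0.831 to 0.872). Their highest summit within 1 kb had a median score of 10.4 (8.95 to 11.5). The 85 pairs with none within 1 kb had a median spacing of 141 bp and a lower CpG ratio of 0.703 (0.564 to 0.818). Picked after their values were seen, examples of the latter are Abcg5-Abcg8, the sterol transporter of liver and intestine, Duox2-Duoxa2, the hydrogen peroxide source of the thyroid and its maturation factor, Col4a4-Col4a3, collagens of the kidney's basement membrane, and H2bc1-H2ac1, histones of the testis. Genes used in most cells were also among them, such as Ndufs3-Kbtbd4, with a subunit of respiratory complex I, and Eif2b1-Gtf2h3.

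Of 18 divergent pairs known from textbooks, 11 met the rule in this annotation and 10 of these held a member. Mitochondrial pairs were among them. Hspd1-Hspe1, the chaperonin Hsp60 and its partner Hsp10, had TSSs 216 bp apart and a score of 38.4, with the summit 23 bp inside Hspe1. The same base also lay in an exon of another Hspd1 transcript. Hadha-Hadhb scored 31.7, with the summit 113 bp from the Hadha TSS and 160 bp from that of Hadhb. Mrps12-Sars2, a protein of the mitochondrial ribosome and the mitochondrial seryl-tRNA synthetase, scored 23.1, 47 bp inside Sars2. Sirt3-Psmd13, a mitochondrial deacetylase and a proteasome subunit, scored 14.7, 53 bp inside Sirt3. All 4 were above the median of other promoter summits (10.9), and Sirt3-Psmd13 was below that of the members.

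Pairs of DNA repair and replication covered the range. Brca1-Nbr1, a repair gene and an autophagy receptor, scored 38.4 with the summit 89 bp inside Nbr1 and 788 bp from the Brca1 TSS. It was a member through TSSs 699 bp apart. The window of this pair's closest TSSs, 152 bp apart, did not hold it. Mcm4-Prkdc, of the replicative helicase and the catalytic subunit of DNA-PK, scored 37 with the summit 250 and 216 bp from the TSSs, near the middle of a 466 bp gap. Atm-Npat, the DNA damage kinase and a coactivator of histone genes, scored 30.1 in a 376 bp gap. Fen1-Tmem258 and Top3a-Smcr8 were lower, both at 12.8, and so was Gart-Son at 10.4, whose summit lay 21 bp inside Son and 873 bp from the Gart TSS. The lower ones stood near the median of 10.9 of other promoter summits.

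The textbook pair Emc8-Cox4i1, of the ER membrane complex and cytochrome c oxidase, held no member in its 138 bp gap, and the nearest summit, 169 bp outside the pair on the Emc8 side, scored 3.75. 5 textbook pairs overlapped head to head in the annotation and so were outside the rule (among them Surf1-Surf2, Ppat-Paics, Col4a1-Col4a2 and Tk1-Afmid), and Tbp-Psmb1 and Acadvl-Dlg4 were 1612 and 1775 bp apart. Hspd1-Hspe1 and Fen1-Tmem258 also had TSSs that overlap head to head, but met the rule through other TSSs. Of the 25 genes named in the study's text that were listed, 24 had a summit within 1 kb (46.8% of all genes did) and 1, the histone deacetylase gene Hdac3, was in a divergent pair. Hdac3-Rell2 held no member, and its nearest summit, 195 bp inside Hdac3, scored 8.12. Ucp1 and the other thermogenic genes on that list were in no divergent pair.

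The 10 gene pairs with the highest member scores ranged from 84.1 to 116. Srgap2-Fam72a led with 116, 328 bp from the TSS of Srgap2, which encodes a GTPase-activating protein. Cdca2-Kctd9, with a chromosome-associated phosphatase regulator, followed at 112, and Mob3a-Izumo4 at 102. Of the next, Atp5j-Gabpa at 98.3 joins coupling factor 6 of the ATP synthase to the α subunit of GABP, the ETS factor known for its sites in genes of the respiratory chain. Its summit lay 93 bp inside Atp5j and had an ETS match within 100 bp.

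Of the 10, Atp5j-Gabpa and Etfdh-4930579G24Rik held a gene of a mitochondrial list, as did 67 of all 625 pairs with a member. Dcaf6-Mpc2, with a subunit of the mitochondrial pyruvate carrier and on no list, scored 91.6 and lay 213 bp from the Mpc2 TSS. Aldh6a1-Lin52 joins an enzyme of valine breakdown to a subunit of the DREAM complex, and Etfdh-4930579G24Rik holds the dehydrogenase that passes electrons from fatty acid oxidation to ubiquinone, and both scored 84.1. The rest were Aasdhppt-Kbtbd3 at 94.1, Anxa5-1810062G17Rik at 90.5 and Nop14-Grk4 at 85.1. Pairs such as Srgap2-Fam72a (542 bp) and Mob3a-Izumo4 (873 bp) were wide, and Anxa5-1810062G17Rik was 50 bp.

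Genes of several basic functions were in divergent pairs more often than the 9% of all genes. The pairing is a property of the annotation, and the summits bear only on how many of those pairs held a member. Among the 84 subunits of oxidative phosphorylation, 26 (31%, 22.1 to 41.5%) were paired and 18 of these had a member. Of 46 assembly factors of the respiratory chain 15 were paired, 9 with a member, and of 79 mitochondrial ribosomal proteins 27 were paired, 21 with a member. Of all 358 genes on the mitochondrial lists 99 (27.7%, 23.3 to 32.5%) were paired and 72 (72.7%) had a member, against 1243 of all 1801 paired genes (69%). The share with a member was thus near that of all paired genes.

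**Figure D4:**
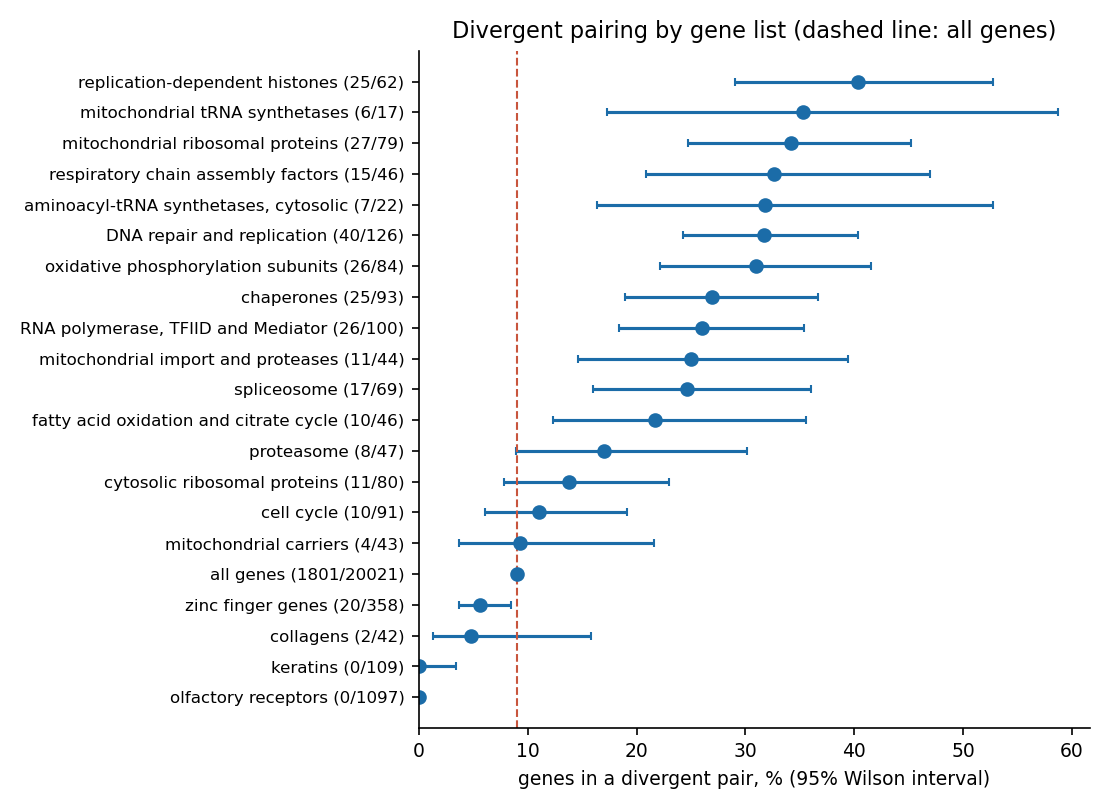
Share of the genes of each list that are in a divergent pair (%, points) with 95% Wilson intervals, paired and total genes in brackets, and all genes (9%) as the dashed line. Most mitochondrial, repair and RNA lists lie between 20 and 40%, and olfactory receptors and keratins are at 0.

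Over the 67 pairs of the mitochondrial lists that held a member the median of the highest score was 17, against 18.8 over all members. By list it was 28.5 for assembly factors, 26.7 for fatty acid oxidation and the citrate cycle, 23.1 for tRNA synthetases, 20.2 for import and proteases, 19.1 for oxidative phosphorylation, 15.3 for ribosomal proteins and 13.6 for carriers, over 2 to 21 pairs each. The pairs named next are the highest of each list, so their scores do not describe the list. Atp5j-Gabpa was first among oxidative phosphorylation pairs, then Mrpl47-Ndufb5 at 47.6, which joins a mitochondrial ribosomal protein to a complex I subunit, and Uqcrh-Lrrc41 at 42.6, with a complex III subunit. Tepsin-Ndufaf8 (55.7), Atpaf2-Gid4 (35.9) and Foxred1-Srpr (30.1) led the assembly factors. Mrpl18-Tcp1 (58.6) and Mrps18b-Ppp1r10 (55.7) led the mitochondrial ribosome, and Pdhx-Apip (58.6) and Styxl1-Mdh2 (51.9) followed Etfdh in the list of fatty acid oxidation and the citrate cycle. Ears2-Ubfd1 (26.1) and Lyrm4-Fars2 (23.8) led the mitochondrial tRNA synthetases. Of 43 mitochondrial carriers 4 were paired (9.3%, 3.68 to 21.6%), an interval that holds the 9% of all genes, led by Slc25a32-Dcaf13 at 21.6.

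In 6 pairs both genes were on a mitochondrial list, and 5 of them held a member. These were Mrpl47-Ndufb5, Hspd1-Hspe1, Hadha-Hadhb, Mrps12-Sars2 and Sdhd-Timm8b, the last with an anchor subunit of succinate dehydrogenase and a protein of mitochondrial import, at 20.2. The other, Mrpl46-Mrps11, with TSSs 42 bp apart, held none and had a summit within 1 kb.

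DNA repair and replication genes were paired at 40 of 126 (31.7%, 24.3 to 40.3%). A member was found for 35 of the 40 (87.5%, 73.9 to 94.5%), against 69% of all paired genes (66.8 to 71.1%). Parp3-Rrp9 was among the highest repair and replication pairs at 53.8. Cell cycle genes were paired at 10 of 91 (11%, 6.08 to 19.1%), an interval that holds the 9% of all genes, with Setd3-Ccnk leading at 62.5. Of 62 replication-dependent histone genes 25 were paired, mostly with each other, since both genes were histones in 12 of their 13 pairs. A member was found at 7 of those 13 pairs, against 68.9% of all 907 pairs, with a median score of 10.4. The highest were H2bc23-H2ac23 at 22.5, H2bc9-H3c7 at 18.4 and H2ac6-H2bc4 at 16.4, all with an NFY match within 100 bp.

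The other lists are given by their counts and leading pairs. Chaperones were paired at 25 of 93, led by Mrpl18-Tcp1 and Hsp90b1-Ttc41 (51.9), and genes of RNA polymerase, TFIID and Mediator at 26 of 100, led by Gtf3c1-D430042O09Rik (38.4). Spliceosome genes were paired at 17 of 69, led by Srsf2-Mfsd11 (44.6), and the proteasome at 8 of 47, led by Psme2-Rnf31 (61.5) and including Psmb9-Tap1 (30.1), an immunoproteasome subunit and the antigen peptide transporter. Cytosolic ribosomal proteins were paired at 11 of 80, led by Rpl15-Nkiras1 (38.4), and cytosolic aminoacyl-tRNA synthetases at 7 of 22, led by S100pbp-Yars (26.1). The intervals of the proteasome (8.89 to 30.1%) and of cytosolic ribosomal proteins (7.85 to 23%) hold the 9% of all genes. Zinc finger genes were paired at 20 of 358 (5.59%), led by Zfp654-Cggbp1 (62.5). Of the 20, 17 had a member (85%, 64 to 94.8%), an interval that holds the 69% of all paired genes. Collagens had 2 of 42 paired and no member, and none of 109 keratins and 1097 olfactory receptors was paired.

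Matches to known promoter motifs were counted within 100 bp of each summit, with exact letters on both strands. The most frequent were SP/KLF (GGGCGGG) in 229 members (36.8%, 33.1 to 40.6%), ETS (CCGGAAG) in 158 (25.4%, 22.1 to 28.9%) and NFY (CCAATNA) in 141 (22.6%, 19.5 to 26.1%). Among other summits within 100 bp of a TSS the shares were 38.6% (36.9 to 40.4%), 20.2% (18.8 to 21.6%) and 17.4% (16.1 to 18.8%). Among summits farther than 1 kb they were 4.68, 2.34 and 5.49%. The intervals of members and other promoter summits did not overlap for ETS and NFY and did for SP/KLF. This rests on the window. Within 50 bp of the summit ETS was in 12.7% of members (10.3 to 15.5%) and 12.1% of other promoter summits (11 to 13.3%), and NFY in 14.4% (11.9 to 17.4%) and 11.5% (10.4 to 12.7%), with overlapping intervals. At scores of at least 10 NFY also overlapped, with 24.8% (21.2 to 28.9%) and 21.6% (19.7 to 23.7%).

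ZNF143 (ACTACAA) was found in 41 members (6.58%, 4.89 to 8.81%) and in 109 other promoter summits (3.55%, 2.95 to 4.26%), and within 50 bp at 3.53% (2.34 to 5.29%) and 1.99% (1.55 to 2.54%), which overlap. The remaining motifs had like shares in both. YY1 (AAGATGGC) was at 5.46 and 4.07%, NRF1 (CGCATGCG) at 4.17 and 3.84%, CRE (TGACGTCA) at 3.69 and 3.87%, and E-box (CACGTG) at 7.54 and 8.43%. The letters TATAAA, of the TATA box, were in 16 members (2.57%) and 94 other promoter summits (3.06%). ERR (TCAAGGTCA) was in none of the 623 members, which allows a share of up to 0.482% by the limit of 3 counts (Wilson upper limit 0.613%), and in 3 other promoter summits, and C/EBP (TTGCGCAA) was in 3 members. A total of 162 members (26%) held none of the motifs, and matches of different motifs shared bases in 2 members, both ETS with SP/KLF.

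**Figure D5:**
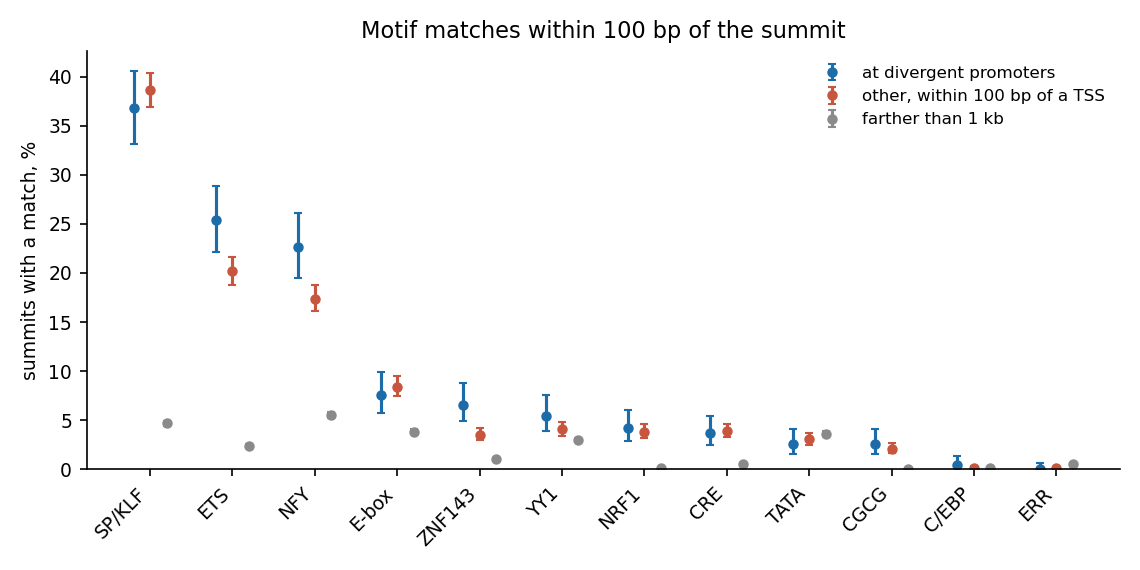
Share of summits with an exact match to each motif within 100 bp (%, points with 95% Wilson intervals) at divergent promoters, at other summits within 100 bp of a TSS, and farther than 1 kb from one. ETS (25.4 against 20.2%), NFY (22.6 against 17.4%) and ZNF143 (6.58 against 3.55%) are higher at divergent promoters with intervals that do not overlap in this window, while within 50 bp (not plotted) the intervals of all 3 overlap.

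Within ranges of base composition the intervals stayed apart for ETS in the higher range only. From 60 to under 70% GC, ETS was in 29.2% of members (24.4 to 34.5%) and 22.1% of others (20.2 to 24.2%), and ZNF143 in 6.23% (4.02 to 9.52%) and 3.13% (2.4 to 4.08%), whose intervals just overlap. From 50 to under 60% GC, the intervals overlapped for both, with ETS at 22 and 19.5% and ZNF143 at 8.72 and 5.94%. NFY was at 28 and 26.2% in the lower range and 20.7 (16.5 to 25.6%) and 16.2% (14.5 to 18%) in the higher, so its intervals overlapped in both. The letters CTCGCGAG were in 16 members (2.57%, 1.59 to 4.13%), in 64 other promoter summits (2.08%, 1.64 to 2.65%) and in 11 of the 21458 summits farther away.

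Members with an NFY match had a median score of 23.1 (18.1 to 24.6) and those without 18.1 (16 to 19.4). For ETS the medians were 19.4 (17 to 22.4) and 18.5 (16.7 to 20.9), and for SP/KLF 19.1 (16.7 to 21.6) and 18.8 (16.7 to 20.9). The centre of the nearest match was a median of 37 bp from the summit for NFY, 47 bp for ETS and 45 bp for SP/KLF. A match is only a run of letters and shows no binding of a factor.

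A few pairs held more than 1 summit. Mepce-Zcwpw1, 630 bp apart, had 14 at 106 bp from the Mepce TSS and 9.78 at 27 bp inside Zcwpw1, 1 summit near each end. Zswim9-Lig1, with DNA ligase 1, had 22.4 at 4 bp inside Zswim9 and 4.61 at 68 bp from another Lig1 TSS. Of the 19 chromosomes, the share of pairs with a member ran from 53.1% (36.4 to 69.1%) on chromosome 14 to 79.5% (64.5 to 89.2%) on chromosome 12, with overlapping intervals.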

How the data were processed

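ATAC-seq nuclei came from BAT of 2 WT and 2 Dot1L-BKO samples. The submitters' processing notes name cutadapt 1.2.1, BWA and MACS2 2.1.1. The authors aligned the reads to mm10 (GRCm38) with BWA, and MACS2, in its ATAC mode with cutoffs of 0.05 on q and 2 on fold enrichment, wrote the summits. The deposited score is the −log10 q-value of each summit, from both genotypes in 1 list. Which libraries served as treatment and control is not given in the sources used here, nor is the read shift that the ATAC mode applied. A score depends on depth and on that choice, and a summit can move by some bases with the shift.

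TSSs were the 5′ ends of RefSeq NM transcripts on chromosomes 1 to 19 of GRCm38. Python 3.11.15 scripts with pandas 2.3.3, SciPy 1.17.1 and pysam 0.24.0 found pairs and members and were tested on simulated data. Shares have 95% Wilson intervals and medians 95% order-statistic intervals. Alternatives were score minimums, margins, spacings, overlapping pairs, XM transcripts and merged summits. Members, gene lists and motifs were chosen with earlier results of these data known, and 5 gene lists were corrected after the list was read (wrongly matched symbols removed). Pairs were named by rule: textbook pairs, the 10 highest scores, the 3 highest per gene list, pairs of genes the study names, and the 3 with most members. The RNA-seq libraries were not analysed here. Some named pairs and 1 sequence that these rules gave are not reported here.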

Additional observations from a re-analysis of the deposited data

Results flagged for a closer look

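Chromosomes X and Y were outside the comparisons of the report, and a signal in them was looked for separately. They had 25 divergent gene pairs, and 10 of these (40%, 95% Wilson interval 23.4 to 59.3%) held a summit in the same window, against 68.9% (65.8 to 71.8%) on chromosomes 1 to 19. The 10 summits scored 2.15 to 22.4 with a median of 9.53, and none was on Y. The difference between the chromosomes was not tested, and the list gives no values of the WT libraries alone to set these against.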

How the results depend on the processing

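In all 10 settings members had a higher median score than other summits near a TSS, and paired TSSs had a summit nearby more often than other TSSs. Of 63 alternative values 35 stayed within the interval of the value reported (or within 1.5 times a count) and 28 moved. Each setting changed the summits, windows or TSSs that were counted, and what made a value move was not tested.

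With scores of at least 5, 63.9% of pairs held a member, 29.7% of paired and 11.8% of other TSSs had a summit within 100 bp, and the other promoter summits had a median of 13.4. With scores of at least 10, these were 52.3%, 24%, 7.63% and 18.8, the members' median was 23.1 and 65.8% of members lay between the TSSs. With no margin around a pair and 50 bp around a TSS, there were 408 members (100% between the TSSs by construction, median 22.9) at 45.5% of pairs, and 16.9% of paired and 7.41% of other TSSs had a summit. With a margin of 200 bp, 80.6% of pairs held a member, 50.7% of members lay between the TSSs, and 57.5% of paired and 23.5% of other TSSs had a summit.

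With TSSs at most 500 bp apart, 35.6% of paired TSSs had a summit and 57.3% of members lay between the TSSs. At most 300 bp apart, these were 39.1% and 51.1%, and 62.4% of pairs held a member. With XM transcripts added, 29.7% of paired and 12% of other TSSs had a summit and 49.1% of members lay between the TSSs. Including head to head pairs that overlap, or merging summits within 500 bp, moved no value. Of 24 alternative motif shares 10 moved, all lower in a window of 50 bp each side, where fewer bases were searched (ETS 12.7%, NFY 14.4%, SP/KLF 18.9%). In that window the intervals of members and other promoter summits overlapped for ETS, NFY and ZNF143, so their separation was lost, and NFY also lost it at scores of at least 10. No paired analysis was possible because each summit has a single score over all 4 libraries, and for the same reason no library could be left out. Depth limits what a missing summit means, since a promoter with few reads is not in the list.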
